A study of Mus musculus with 5 samples.

Results

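The 10 genes described here belong to Wnt signalling: the ligands Wnt4, Wnt7a, Wnt7b and Wnt10a, the receptors Fzd6 and Lgr4, the transducer Ctnnb1, the transcription factor Lef1, the feedback gene Axin2 and the secreted antagonist Sostdc1. They were taken by name from the gene lists of 5 single-cell RNA-seq libraries, on which they are 10 of 32932 genes, and all 10 were listed for every library. Of these genes Wnt4, Wnt10a, Ctnnb1 and Sostdc1 were counted at more than 1000 unique molecular identifiers (UMIs, each marking 1 captured transcript) in every organoid library, and Lef1 was close to undetected. With all kept barcodes and a pseudocount of 1 CPM Sostdc1, lower in the proton library, was the only member past 1.5-fold after irradiation. With each barcode thinned at random to 1000 UMIs, Sostdc1 after protons was short of 1.5-fold (log2 ratio -0.51) and Lgr4 after photons was past it (-0.69).

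The libraries came from the submandibular gland of C57BL/6 mice, grown as mouse salivary gland organoids (mSGOs) in Matrigel or dissociated directly. Of the 7-day mSGOs, derived from 4 animals of 8 to 12 weeks, 1 library was left without irradiation (control), 1 received 7 Gy photons and 1 received 7 Gy protons (in the plateau of the beam) on day 5, and all 3 were harvested on day 7 of culture. A further library held untreated 11-day mSGOs, which came from another batch of animals and another run (age not given in the sample labels, 8 to 12 weeks for all glands in the methods), and the last held cells of fresh gland tissue from mice of 8 to 12 weeks. All mSGOs grew in medium that contained 10% R-spondin1-conditioned and 50% Wnt3a-conditioned medium, so Wnt ligand and R-spondin were supplied from outside in every organoid library, and each library started from 45000 cells sorted as negative for propidium iodide, which enters dead cells. Each group is 1 library, so no difference below has a replicate check and no test was made, and all intervals are 95% intervals that cover counting error alone.

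In canonical Wnt signalling a secreted Wnt ligand binds a Frizzled receptor with its Lrp co-receptor, the complex that degrades beta-catenin (the product of Ctnnb1) is held back, and beta-catenin enters the nucleus and acts there with factors of the TCF/LEF family. R-spondins strengthen the signal through Lgr receptors, and Axin2 is a widely used readout because the pathway switches it on and its product then limits the signal. In the salivary gland, as in tooth and hair follicle, Wnt signalling takes part in the growth and branching of the epithelium, and Sostdc1 is known from these organs as an inhibitor of both Wnt and BMP signalling.

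Barcodes with at least 200 detected genes, at most 5% mitochondrial UMIs and no doublet mark were kept. They numbered 6494 in the control, 15610 after photons, 15325 after protons, 9484 in 11-day mSGOs and 1402 in tissue, with 5932095 to 32070703 UMIs in total and a median of 898.5 to 3025 UMIs per barcode. Barcodes in which the nuclear RNA Malat1 made up at least 1% of UMIs were 16.0%, 10.0% and 8.95% of the 7-day libraries in the order control, photon and proton, against 98.8% of the 11-day and 11.3% of the tissue library. A UMI of Epcam, Krt5, Krt8, Krt14 or Krt18 was present in at least 99.3% of the barcodes of each organoid library and in 59.3% of tissue barcodes, and acinar secretory genes held 556691 counts per 1000000 UMIs (CPM) of the tissue library against at most 10.7 CPM in the organoids. Between 3 and 69 kept barcodes were shared by a pair of libraries, at most 0.642% of the smaller library.

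The members lie on different chromosomes or far apart, and on the GRCm39 assembly (GENCODE vM39) Sostdc1 is the shortest, with 2 exon blocks on the plus strand of chr12:36364137-36368451, inside which the gene Gm40392 on the same strand is also counted in both gene lists, so that reads could be split between them. Wnt4 lies at chr4:137004373-137027037 (plus), Wnt7a at chr6:91340959-91388460 (minus), Wnt7b at chr15:85419638-85466674 (minus) and Wnt10a at chr1:74830675-74844355 (plus). Fzd6 lies at chr15:38869243-38901584 (plus), Lgr4 at chr2:109747839-109844609 (plus), Ctnnb1 at chr9:120757422-120789579 (plus), Lef1 at chr3:130903919-131018005 (plus) and Axin2 at chr11:108811169-108841609 (plus).

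Promoter windows, from 250 bases before to 50 bases after a transcription start (RefSeq, GRCm38.p6), were at hand for Wnt4, Wnt7a, Lgr4, Ctnnb1, Lef1 and Axin2. The core of the motif bound by TCF/LEF factors, CTTTGA, was looked for on both strands and occurs in 5257 of 32851 windows (16.0%). Among the members it occurred in 1 of the 4 windows of Lef1, at 180 and 120 bases before the start on the minus strand (capitals), and in none of the windows of the other members listed above. That window (chr3:131156044-131156343, plus strand) and the window of Axin2 (chr11:108920099-108920398, plus strand), the member most used as a readout of the pathway, are shown because Lef1 was close to undetected in these libraries whereas Axin2 was counted in all 5. The other Lef1 windows, which start upstream of the one shown at chr3:131110047, 131110073 and 131112541, hold no match.
Lef1: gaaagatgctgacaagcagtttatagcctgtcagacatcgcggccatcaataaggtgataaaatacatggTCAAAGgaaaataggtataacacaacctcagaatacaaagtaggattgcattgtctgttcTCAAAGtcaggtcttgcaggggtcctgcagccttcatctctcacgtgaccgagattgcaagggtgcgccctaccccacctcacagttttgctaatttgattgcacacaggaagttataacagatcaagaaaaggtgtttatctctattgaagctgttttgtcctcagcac
Axin2: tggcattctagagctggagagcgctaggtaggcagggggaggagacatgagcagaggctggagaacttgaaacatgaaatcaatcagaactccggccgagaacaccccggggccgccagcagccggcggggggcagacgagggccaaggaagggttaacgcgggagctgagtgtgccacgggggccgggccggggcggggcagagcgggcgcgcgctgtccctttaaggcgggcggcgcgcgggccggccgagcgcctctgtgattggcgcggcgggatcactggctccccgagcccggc
A match of these letters is a description of the window and not evidence of binding.

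Wnt4, a ligand of branching epithelia that often acts without beta-catenin, was counted at 126 CPM (interval 121 to 132) in the control, 159 (154 to 164) after photons, 172 (166 to 177) after protons, 135 (131 to 139) in 11-day mSGOs and 12.8 (10.1 to 16.0) in tissue. It was therefore higher in both irradiated libraries than in both untreated organoid libraries and lowest in tissue, with no overlap of the intervals between irradiated and untreated organoids. In the plot of levels by library the same order is visible.

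**Figure D1:**
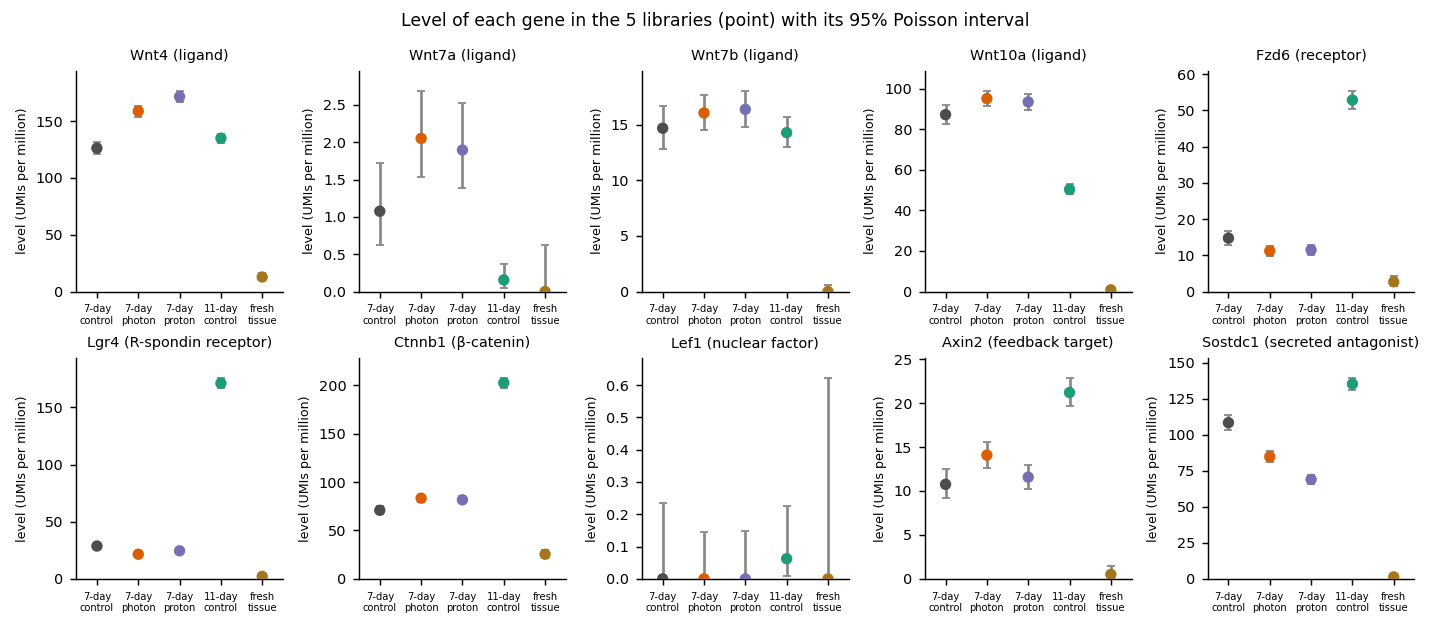
Level of each of the 10 genes (y axis, UMIs scaled to CPM and summed over kept barcodes, linear axis with its own range in each panel) in the 5 libraries (x axis), with points for the level and bars for the 95% Poisson interval. Wnt4 runs from 12.8 CPM in tissue to 172 CPM in the proton library, and Lef1 holds 2 UMIs, both in the 11-day library.

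Wnt10a, a ligand of ectodermal organs such as tooth and hair, stood at 87.2 CPM in the control, 95.1 after photons, 93.5 after protons, 50.3 in 11-day mSGOs and 0.843 (5 UMIs) in tissue. The 3 values of the 7-day mSGOs lay close together, the 11-day value was lower and the tissue value was near the detection limit. Wnt7b, a ligand of basal and duct epithelia, was at 14.7, 16.1, 16.4 and 14.3 CPM in the control, photon, proton and 11-day libraries, with overlapping intervals, and had 0 UMIs in tissue, where a count of 0 allows up to 3 counts or 0.506 CPM. Wnt7a, its close relative, was sparse, with 17 UMIs in the control, 52 after photons, 47 after protons, 5 in 11-day mSGOs and 0 in tissue.

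Fzd6, a Frizzled receptor best known for planar cell polarity, was at 14.7 CPM in the control, 11.2 after photons, 11.5 after protons, 52.9 in 11-day mSGOs and 2.70 (16 UMIs) in tissue. Lgr4, the R-spondin receptor of many epithelia, followed the same order of libraries, with 28.7, 21.6, 24.6, 171 and 2.19 CPM (13 UMIs in tissue). Both receptors were thus lower in the irradiated than in the control library, and several times higher in the 11-day library.

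Ctnnb1, which encodes beta-catenin and also serves in adherens junctions, was at 70.9 CPM in the control, 83.4 after photons, 81.7 after protons, 203 in 11-day mSGOs and 25.5 in tissue. The irradiated values overlapped each other and lay above the control. Axin2 was at 10.8 CPM in the control, 14.1 after photons, 11.6 after protons, 21.2 in 11-day mSGOs and 0.506 (3 UMIs) in tissue, so the proton value overlapped the control while the photon value lay above it.

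Lef1, a transcription factor of the TCF/LEF family, gave 0 UMIs in 6494 control, 15610 photon, 15325 proton and 1402 tissue barcodes and 2 UMIs in the 11-day library. With 3 counts as the limit that a count of 0 allows, the share of barcodes with a UMI could be up to 0.0462% in the control and 0.214% in tissue. No fold is given for it, since every library was at or under the floor of 3 counts. The other members of its family were present, since Tcf7, Tcf7l1 and Tcf7l2 had 76, 69 and 93 UMIs in the control library.

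Sostdc1 was at 108 CPM (103 to 114) in the control, 84.8 (81.3 to 88.5) after photons, 69.0 (65.8 to 72.4) after protons, 135 (131 to 139) in 11-day mSGOs and 1.35 (8 UMIs) in tissue. No intervals overlapped among the organoid libraries, and the order ran from the 11-day through the control and photon to the proton library. Of the 8 UMIs in tissue, 6 came from 1 barcode.

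The effect of each radiation type was asked by comparing the irradiated 7-day libraries with the control of the same day and with each other. A gene was counted as higher or lower when the libraries compared held at least 50 UMIs of it in sum and its CPM (with a pseudocount of 1 CPM) differed by at least 1.5-fold. After photons 0 of 9 measured members were higher and 0 lower, beside 4.43% and 2.11% of the 10530 genes compared. After protons 0 of 9 were higher and 1, Sostdc1, was lower, beside 3.87% and 2.41% of 10442 genes. Between protons and photons 0 of 9 differed in either direction, beside 0.482% higher and 0.686% lower of 10785 genes. The control library is shared by the photon and proton comparisons, so the values of these comparisons are not independent, and in summed counts fewer cells of a type and less RNA per cell cannot be told apart.

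**Figure D2:**
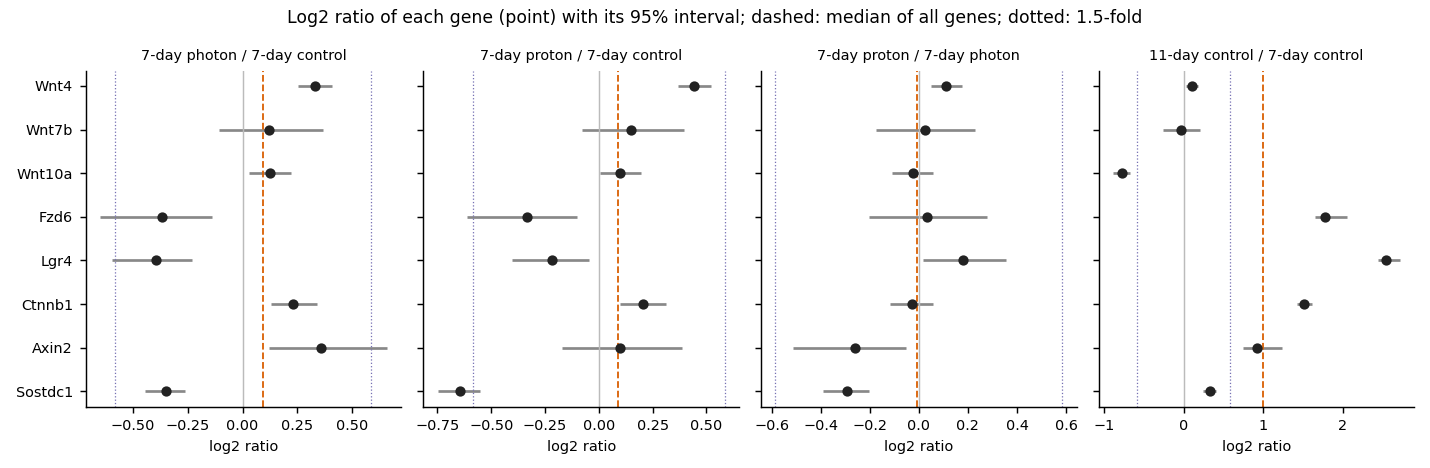
Log2 ratio (x axis) of the CPM of 8 members (y axis) in the comparisons of organoid libraries (1 panel each), with points for the ratio, bars for the 95% interval of the counts, a dashed line at the median of all genes and dotted lines at 1.5-fold. Wnt7a and Lef1, with few UMIs, are not drawn. After irradiation Sostdc1 in the proton library, at -0.64, is the only point past a dotted line, and in the 11-day panel Wnt10a lies at -0.77 and Lgr4 at 2.54.

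Sostdc1 was 1.57-fold lower in the proton than in the control library (interval 1.47 to 1.68), 1.28-fold lower in the photon than in the control library (1.2 to 1.36) and 1.23-fold lower in the proton than in the photon library (1.15 to 1.31). In barcodes with at least 1% Malat1 the log2 ratio was -0.80 for protons and -0.59 for photons, so both were then past 1.5-fold. The proton ratio stayed negative under all 11 alternatives tried, from -0.80 to -0.51 on the log2 scale, and was short of 1.5-fold under a limit of 2500 detected genes and after thinning to 1000 UMIs.

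Wnt4 differed in the other direction, at 1.26-fold (1.19 to 1.33) the control level in the photon and 1.36-fold (1.29 to 1.43) in the proton library. These are log2 ratios of 0.33 and 0.44, beside a median over all genes compared of 0.09 in both comparisons. They kept their sign under all 11 alternatives and were 0.35 and 0.39 in barcodes with at least 1% Malat1. The other well counted ligand, Wnt10a, was at 1.09-fold (1.02 to 1.17) and 1.07-fold (1.00 to 1.15) the control, close to the median of all genes.

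Neither receptor was past 1.5-fold over all kept barcodes. Lgr4 was 1.33-fold lower in the photon library (1.17 to 1.51) and 1.17-fold lower in the proton library (1.03 to 1.32), and Fzd6 was 1.32-fold (1.1 to 1.57) and 1.28-fold lower (1.07 to 1.53). Both genes kept their sign in both comparisons under the 11 alternatives. Thinned to 1000 UMIs, Lgr4 was at a log2 ratio of -0.69 after photons, past 1.5-fold, and -0.52 after protons, and Fzd6 at -0.24 and -0.11. In barcodes with at least 1% Malat1 the log2 ratio of Lgr4 was -0.22 after photons and -0.06 after protons and that of Fzd6 -0.30 (-0.67 to 0.04) and -0.22 (-0.58 to 0.12), all with intervals that included 0. Over the 13 measured Wnt receptors, Fzd6 among them, the median log2 ratio was 0.04 after photons and 0.21 after protons.

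Ctnnb1 was at 1.18-fold (1.09 to 1.27) the control in the photon and 1.15-fold (1.07 to 1.24) in the proton library, but in barcodes with at least 1% Malat1 the log2 ratios turned to -0.18 and -0.28. Axin2 was at 1.31-fold (1.09 to 1.58) the control in the photon and 1.08-fold (0.887 to 1.31) in the proton library. In barcodes with at least 1% Malat1 its log2 ratios were 0.13 (-0.24 to 0.52) and -0.32 (-0.76 to 0.08). Wnt7b, at 1.09-fold (0.929 to 1.29) and 1.12-fold (0.947 to 1.32), was not distinguishable from the control at this depth, and in these barcodes was at log2 ratios of 0.06 and -0.15, with intervals that included 0. The direction of Ctnnb1 in both comparisons thus differed between all kept and Malat1-rich barcodes. Axin2 and Wnt7b after protons also changed sign, but with intervals that included 0 in both sets of barcodes. The part of the difference in Malat1 content in these ratios was not tested. Wnt7a, on 17 control UMIs, was at 1.91-fold (1.09 to 3.52) the control after photons and 1.76-fold (0.993 to 3.27) after protons without the pseudocount, and short of 1.5-fold with it (log2 ratios 0.56 and 0.48).

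Among the other 87 genes of the Wnt lists (ligands, secretion, receptors, R-spondin axis, destruction complex, TCF/LEF factors, targets and antagonists), 50 were measured after photons, of which 1 was higher (Wnt9a, log2 ratio 0.89) and 2 were lower (Fzd2, -0.60, and Nkd2, -0.67), beside 4.43% of all genes higher and 2.11% lower. After protons 2 of 50 were higher (Wnt9a, 1.05, and the target Myc, 0.63) and 0 were lower, beside 3.87% and 2.41% of all genes. The medians of these 50 were 0.10 after photons and 0.12 after protons, beside 0.09 over all genes in each comparison. Wnt9a, Fzd2 and Nkd2 are named because their counts are small, after their values were seen.

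Sostdc1 also acts on BMP signalling, and among 15 measured genes of the BMP list Id1, a direct BMP target, was higher in both irradiated libraries (log2 ratio 0.72 after photons and 0.89 after protons). Id2, of the same family, was at 0.50 and 0.64, past 1.5-fold after protons only, which is no test of a difference between the radiation types. Id3, also a BMP target and the best counted of these, was at 0.08 and 0.20, and the inhibitory Smad7 at -0.06 and 0.19. The list thus had 1 of 15 genes higher after photons and 2 of 15 after protons, beside 4.43% and 3.87% of all genes. No gene of this list was lower by 1.5-fold in either comparison, and its medians were 0.24 and 0.26. Among the well counted genes of the lists other than the members the lowest ratios were small. After photons they were those of the BMP and activin inhibitor Fst (-0.39), the co-receptor Lrp6 (-0.08) and Smad7, and after protons those of Lrp6 (-0.09), the BMP receptor Bmpr2 (-0.07) and the Wnt acyltransferase Porcn (-0.05). The highest after photons were Id1, Id2 and the cell cycle gene Ccnd1 (0.39), and after protons Id1, Id2 and Myc. Between protons and photons 0 of the 50 Wnt and 0 of the 15 BMP genes were past 1.5-fold. The ratios of those well counted ran from Fst (0.39), Smad7 (0.25) and Myc (0.25) to Gsk3a (-0.06), Bmpr2 (-0.08) and Apc (-0.16). Gsk3a and Apc belong to the destruction complex.

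A part of the Sostdc1 UMIs lay in few barcodes, and in every organoid library more lay outside them. In the control library 64 of 6494 barcodes (0.986%) had at least 5 Sostdc1 UMIs and together held 46.6% of its UMIs, with up to 54 in 1 barcode. In the photon library 47 of 15610 barcodes (0.301%) held 24.3%, in the proton library 42 of 15325 (0.274%) held 28.3%, and in the 11-day library 247 of 9484 (2.60%) held 44.1%. For Wnt4, counted at a like total, barcodes with at least 5 UMIs held 13.8% of the control UMIs, and Axin2 and Fzd6 had no such barcode in the control library.

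Nearly all of these barcodes were rich in Malat1. Among barcodes with at least 1% Malat1 they made up 5.98% of the control (interval 4.61% to 7.60%), 3.0% of the photon (2.21% to 3.97%) and 2.99% of the proton library (2.15% to 4.03%), so the control share lay above both irradiated shares, which overlapped. The Malat1-rich barcodes differed in depth, with medians of 5841, 4406.5 and 5345 UMIs in the same order, and when each was thinned to 1000 UMIs the share with any Sostdc1 UMI was 7.41% (5.86% to 9.21%), 5.74% (4.61% to 7.04%) and 5.74% (4.56% to 7.12%), with overlapping intervals, against 21.2%, 16.3% and 15.5% before thinning.

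**Figure D3:**
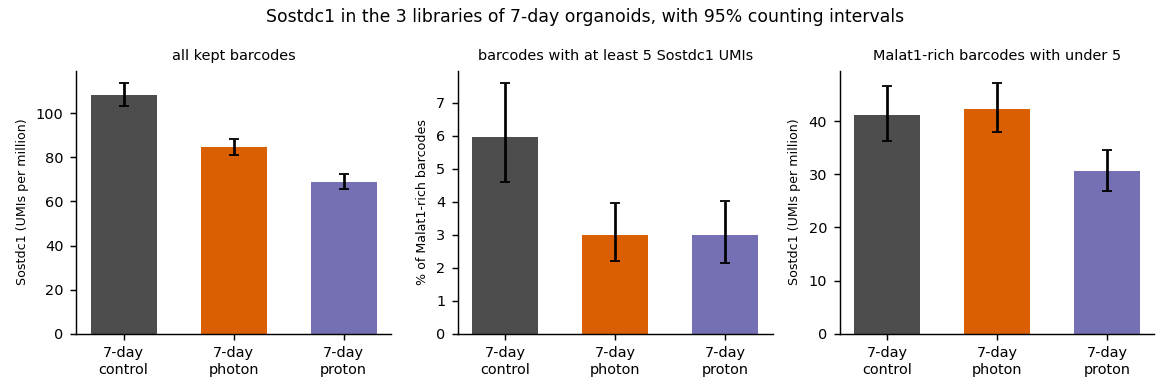
Sostdc1 in the 7-day libraries, as the level in all kept barcodes (left, CPM), the share of Malat1-rich barcodes with at least 5 Sostdc1 UMIs (middle, percent) and the level in Malat1-rich barcodes with under 5 (right, CPM), with bars from 0 and 95% counting intervals. The share is 5.98% in the control against 3.0% and 2.99% after photons and protons, and the level on the right is 41.2, 42.4 and 30.5 CPM.

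In all kept barcodes with under 5 Sostdc1 UMIs each the level was 60.2 CPM in the control, 65.6 in the photon and 50.2 in the proton library. The photon library was then no longer below the control (log2 ratio 0.12, interval 0.01 to 0.24), whereas the proton library was (-0.26, interval -0.39 to -0.14) and also lay below the photon library (-0.38, -0.49 to -0.28). This split by the measured gene was made after the values were seen and describes where its UMIs lie.

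In the control library the barcodes with at least 5 Sostdc1 UMIs also held more Aqp5, the water channel of secretory acinar cells, at 115 CPM against 27.4 CPM in the others. After irradiation the same contrast was 14.4 against 8.83 CPM (8 Aqp5 UMIs in these barcodes) for photons and 13.4 against 8.19 CPM (5 UMIs) for protons, both with intervals of the ratio that included 1. In the 11-day library it was 40.4 against 12.6 CPM (log2 ratio 1.61, 1.22 to 2.12). Among the members, Wnt10a was higher in these barcodes in every organoid library, by log2 ratios of 1.00 without irradiation, 0.79 after photons, 1.00 after protons and 1.17 in 11-day mSGOs, with intervals above 0. Wnt4 was lower in them in all 4, by -0.31, -0.31, -0.87 and -0.56, with intervals below 0 in the proton and 11-day libraries. Axin2 was higher in them in the control library, 30.9 against 9.94 CPM, on 19 UMIs. Its values were 18.0 against 14.0 CPM after photons, 8.07 against 11.6 CPM (3 UMIs) after protons and 22.7 against 21.1 CPM in the 11-day library, each with an interval of the ratio that included 1.

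Clusters of the merged 7-day libraries, made without the members and the Wnt and BMP lists among the clustering genes, numbered 5, and none of them could be named from cell type markers. They differed in RNA content, with a median of 778 to 6721.5 UMIs and of 0.0666% to 15.3% Malat1. The directions of all genes by cluster were not computed, so the counts of clusters given for the members stand without that background. Wnt4 was higher in the photon and in the proton library than in the control in 5 of 5 clusters, with the interval above 0 in 4 of 5 for each. In the cluster with the deepest barcodes, cluster 4, it was at 134 CPM in the control, 171 in the photon and 178 in the proton library.

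Sostdc1 was lower than in the control in 4 of 5 clusters after photons and in 4 of 5 after protons, with the interval below 0 in 1 and in 4 clusters. Cluster 4 held the highest level and the widest contrast, at 161 CPM in the control, 109 in the photon and 92.9 in the proton library. In cluster 5, of 1209 barcodes with 15.3% Malat1, the libraries were close together at 45.4, 50.7 and 46.3 CPM. The proton library lay below the photon library in 5 of 5 clusters, with the interval below 0 in 4.

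Wnt10a was higher after both radiation types in 5 of 5 clusters, with the interval above 0 in 3 for photons and 1 for protons. Over all kept barcodes it was close to the median of all genes in both comparisons. Lgr4 was lower in 4 of 5 clusters after photons and 5 of 5 after protons, but the interval was below 0 in only 1 and 0 of them. Axin2 was higher in 5 of 5 clusters after photons and in 4 of 5 after protons, where cluster 4 went the other way with a log2 ratio of -0.55. Ctnnb1 was higher in 3 and lower in 2 clusters for both radiation types, and lower in cluster 4 for both.

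The 11-day library was compared with the 7-day control to ask how the members stand in older mSGOs, and here batch of animals, run and the software version in the file headers changed together with the day and cannot be told apart from it. Of 8 measured members 4 were higher (Lgr4, Fzd6, Ctnnb1 and Axin2) and 1 was lower (Wnt10a), beside 64.4% of all 12189 genes higher and 8.44% lower and a median log2 ratio of 1.00 over all genes. A share of 4 in 8 is thus no larger than that of all genes.

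**Figure D4:**
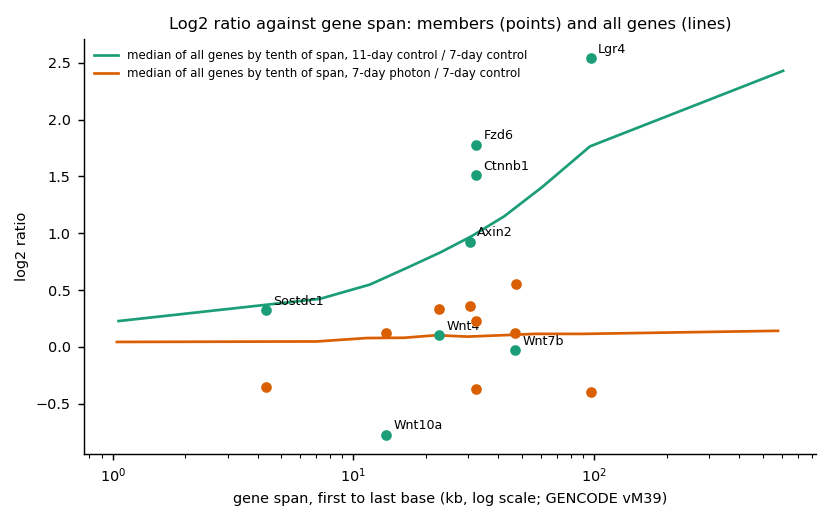
Log2 ratio (y axis) against the length a gene spans on the genome (x axis, kb, log axis) for the 11-day library (green) and the photon library (orange), each against the 7-day control, with lines for the median of all genes in 10 classes of span and points for the members. The green line runs from 0.23 to 2.43, the orange line from 0.04 to 0.14, and Lgr4, Fzd6 and Ctnnb1 lie above the green line.

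The ratio rose with the length a gene spans on the genome, introns included, from a median of 0.23 in the class of shortest genes to 2.43 in the longest, whereas in the photon comparison the medians of the classes lay between 0.04 and 0.14. The part of this trend in the members' ratios was not tested, so each is given beside the median of genes of like span. Lgr4, spanning 96.8 kb, was at 5.99-fold (5.44 to 6.60) the 7-day level without the pseudocount. With it the log2 ratio was 2.54, which is 0.78 above its span class. Fzd6 was at 3.6-fold (3.14 to 4.15), 0.81 above its span class, and Ctnnb1 at 2.87-fold (2.70 to 3.06), 0.54 above its span class. These 3 were above genes of like span and stayed above 0 under median-of-ratios scaling, at log2 ratios of 1.51, 0.77 and 0.47. Ctnnb1 was short of 1.5-fold on both of these scales. In barcodes with at least 1% Malat1 they were at 2.52, 1.38 and 1.30.

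Axin2, at 1.98-fold (1.67 to 2.36) the 7-day level, was at -0.05 relative to genes of like span and at -0.06 under median-of-ratios scaling, so that its direction depends on the scale. In barcodes with at least 1% Malat1 its log2 ratio was 0.50 (0.22 to 0.85), short of 1.5-fold. Wnt10a was 1.72-fold lower (1.60 to 1.85) without the pseudocount. With it the log2 ratio was -0.77, and it was -1.32 relative to its span class and -1.81 under median-of-ratios scaling, lower on each of these scales. Thinned to 1000 UMIs it was at -0.51, short of 1.5-fold. Wnt4, at a log2 ratio of 0.10, and Wnt7b, at -0.03, moved to -0.73 and -1.18 against genes of like span and to -0.94 and -1.01 under median-of-ratios scaling. Sostdc1, the shortest member, was at 0.32, at 0.10 against genes of like span, at -0.72 under median-of-ratios scaling and at -0.19 in barcodes with at least 1% Malat1.

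Of the other genes of the Wnt lists 55 were measured in this comparison, with 37 higher, 6 lower and a median log2 ratio of 1.16, near the 1.00 of all genes. In the R-spondin axis all 5 measured genes, Lgr4 among them, were higher, beside 64.4% of all genes and 87.4% of those in the span class of Lgr4. They included the membrane ubiquitin ligase Znrf3, an antagonist that R-spondin removes, at 4.35, and the stem cell marker Lgr5 at 193 UMIs against 1. Relative to genes of like span Znrf3 was at 1.92, Lgr6 at 0.35, Lgr5 at 0.30 and Rnf43, a ligase related to Znrf3, at -0.18. The value of Lgr5 understates its difference, since the pseudocount of 1 CPM exceeds its control level (0.0633 CPM against 6.02 in the 11-day library). The ligands went both ways, with Wnt5a at 1.18, Wnt5b at 409 UMIs against 1, and Wnt6, Wnt9a and Wnt11 at -2.23, -0.83 and -2.74 beside the lower Wnt10a. The other lower genes were Porcn, which lipidates Wnt ligands (-1.11), Dvl1 (-0.69) and Fzd2 (-0.61). With the members left aside, the highest ratios of well counted list genes after Znrf3 were those of the TCF factor Tcf7l2 (3.76) and the BMP type I receptor Acvr1 (3.57), which were at 1.33 and 1.14 relative to genes of like span. The lowest of these genes were Id3 (-2.12), Porcn and Gsk3a (-0.41, short of 1.5-fold), at -2.35, -1.66 and -0.96 against their span classes.

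Within the 11-day library the members differed between clusters to very different degrees. The 10 clusters of at least 50 barcodes were made without the members, and of these 1 was striated or granular duct-like (350 barcodes, led by Klk1b11 and Klk1) and 1 cycling-like (126 barcodes, led by Cenpf and Ube2c, with the secretory genes Dcpp1 and Dcpp3 also among its leading genes). The others stay unnamed and are given by number and leading genes.

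**Figure D5:**
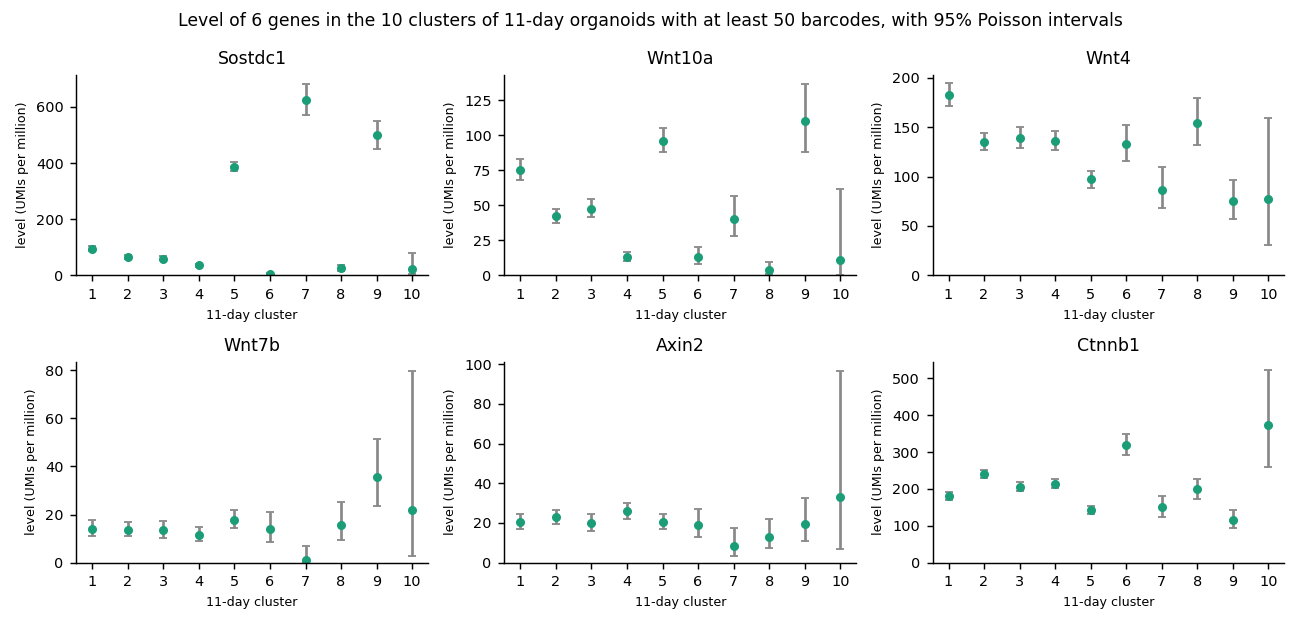
Level (y axis, UMIs scaled to CPM, linear axis with its own range in each panel) of 6 members in the 10 clusters of the 11-day library with at least 50 barcodes (x axis), with points for the level and bars for the 95% Poisson interval. Sostdc1 is high in clusters 5, 7 and 9 (387, 625 and 498 CPM), and Wnt4 spans only 74.8 to 183 CPM.

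Sostdc1 was at 625 CPM (572 to 681) in cluster 7 (296 barcodes, led by Acta2, Igfbp2 and Wfdc18, with Aqp5 also among its leading genes), 498 (450 to 551) in the cycling-like cluster and 387 (371 to 405) in cluster 5 (1190 barcodes, led by Meg3, Dlk1 and Vim). In clusters 1 to 4 it was at 94.5, 64.9, 59.6 and 35.7 CPM, in cluster 8 (led by Psca and Sprr2f) at 25.1 and in the striated or granular duct-like cluster at 3.15 (5 UMIs). Highest and lowest differed 199-fold (84.5 to 614). Clusters 5, 7 and 9, the last being the cycling-like cluster, held 45.9%, 11.8% and 8.76% of the Sostdc1 UMIs with 16.0%, 2.55% and 2.38% of all UMIs of the library.

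The share of barcodes with a Sostdc1 UMI was 50.9% in cluster 5, at a median of 4008 UMIs per barcode, and 1.43% in the striated or granular duct-like cluster at 3943.5 UMIs, and these barcodes were not thinned to one depth. No cell type known to lack Sostdc1 was available in the organoids as a measure of free RNA, and the 1.43% is the lowest share seen among the named and numbered clusters.

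Wnt10a was at 110 CPM in the cycling-like cluster, 96.1 in cluster 5, 75.4 in cluster 1, 40.3 in cluster 7, 13.2 in the striated or granular duct-like cluster and 3.71 (4 UMIs) in cluster 8, a 29.7-fold range (11.2 to 111). It was thus high in 2 of the 3 clusters with most Sostdc1 and near the middle in cluster 7. Wnt4 was spread more evenly, from 183 CPM in cluster 1 and 154 in cluster 8 to 97.1 in cluster 5, 86.8 in cluster 7 and 74.8 in the cycling-like cluster, a 2.45-fold range (1.87 to 3.26), and of clusters 1 to 9 the 3 rich in Sostdc1 had its lowest values.

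Wnt7b was at 35.4 CPM in the cycling-like cluster, at 11.5 to 17.9 CPM in clusters 1 to 5, and at 1 UMI in cluster 7, the cluster with most Sostdc1. Axin2 lay between 18.9 and 25.8 CPM in clusters 1 to 6, and at 8.56 (7 UMIs) in cluster 7 and 13.0 (14 UMIs) in cluster 8, so its interval in cluster 7 (3.44 to 17.6) ended below the level of clusters 1 to 6. Among clusters 1 to 9 Ctnnb1 was highest in the striated or granular duct-like cluster, at 320 CPM (293 to 349), and at 115 in the cycling-like cluster and 142 in cluster 5. Fzd6 ranged from 41.7 to 60.8 CPM over clusters 1 to 9 and Lgr4 from 91.0 in cluster 8 to 221 in cluster 2. Cluster 10, with a median of 764 UMIs and 10.7% Malat1, had higher values of both (154 and 364 CPM), of which its 14 and 33 UMIs are the basis.

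Over the 10 clusters of the 11-day library the 5 genes whose log2 level was most like that of Sostdc1, among 7153 genes with at least 500 UMIs, included Ttc9 (Pearson r 0.96), Fscn1 (0.95), Eif2b3 (0.95) and Rab34 (0.95). Among the members r was 0.74 for Wnt10a, -0.30 for Fzd6 and for Lgr4, -0.38 for Axin2, -0.46 for Wnt4 and -0.86 for Ctnnb1. Over the 5 merged 7-day clusters, which differ mainly in RNA content, the 5 genes most like Sostdc1 of 6787 included Sparc, Carnmt1, Rab35 and Ybx3 (r from 0.99 to 1.00). Among the members r was there 0.78 for Wnt7b, 0.65 for Wnt4, 0.56 for Axin2, 0.08 for Fzd6, -0.05 for Ctnnb1, -0.10 for Wnt10a and -0.67 for Lgr4. The values for Wnt4, Axin2, Wnt10a and Fzd6 thus had the opposite sign in the 7-day and 11-day clusters. The points share 1 library or 3, and these values describe the clusters and carry no test.

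Fresh tissue was compared with the 7-day control to set the members beside the gland itself. All 8 measured members were lower in tissue and 0 were higher, beside 71.5% of all 9608 genes lower and 9.38% higher and a median log2 ratio of -1.23, in a library whose acinar secretory genes hold 556691 CPM. The folds that follow were computed without the pseudocount, unlike the log2 ratios. Wnt10a was 103-fold lower (44.2 to 319), Sostdc1 80.4-fold (40.7 to 186), Axin2 21.3-fold (7.16 to 104, on 3 UMIs), Lgr4 13.1-fold (7.59 to 24.8), Wnt4 9.85-fold (7.83 to 12.6), Fzd6 5.47-fold (3.30 to 9.72) and Ctnnb1 2.78-fold (2.35 to 3.32). With the pseudocount Wnt10a was 47.9-fold and Sostdc1 46.6-fold lower. Wnt7b and Wnt7a had 0 UMIs in tissue. With tissue set to a floor of 3 counts and the counting error of the control left aside, Wnt7b was at least 29.0-fold lower and Wnt7a at least 2.13-fold lower. The upper ends of the 95% intervals of their log2 ratios, which take in both counts, were -4.55 and -0.63.

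Relative to genes of like span Ctnnb1 was at -0.21 and Wnt10a at -4.26 on the log2 scale, so that Ctnnb1 stood near the bulk of genes and Wnt10a and Sostdc1 (-4.10) far below it. In the 158 tissue barcodes with at least 1% Malat1, set against such barcodes of the control, the direction of Ctnnb1 turned, to a log2 ratio of 0.55 (0.23 to 0.88). The ratio of Wnt4 was then -1.76 (37.9 against 130.7 CPM) in place of -3.20, that of Sostdc1 -3.92 (9.14 against 152.8 CPM) in place of -5.54, and that of Fzd6 -0.86, with an interval that included 0 (-2.16 to 0.10), in place of -2.09. Axin2 was at -2.13 and Lgr4 at -3.07, on 2 tissue UMIs each, and Wnt10a and Wnt7b had 0 tissue UMIs.

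Transcripts of the members in tissue differed in level between clusters. Of 76 Wnt4 UMIs 24 came from the striated or granular duct-like cluster (102 barcodes, 77.5 CPM, 49.6 to 115) and 14 from cluster 3 (156 barcodes led by Wfdc2, Klk1b4 and Klk1, 33.4 CPM), and a further 23 from cluster 5 (9.96 CPM), against 5.30 CPM in the acinar-like cluster (1.94 to 11.5). The Wnt4 level of the duct-like cluster was therefore closer to the organoids than the tissue total was. Ctnnb1 was highest in the endothelial-like cluster, at 165 CPM (126 to 213), which held 39.1% of its UMIs, and Fzd6 had 7 of its 16 UMIs there, whereas in the acinar-like cluster they had 10 and 0 UMIs. The 3 Axin2 UMIs and 6 of the 8 Sostdc1 UMIs fell in cluster 5 (124 barcodes led by Fam13a and Epha5).

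Of the other genes of the Wnt lists 44 were measured in this comparison, with 36 lower, 1 higher (the receptor Fzd4, 2.36) and a median of -1.49, beside -1.23 over all genes. Among the well counted genes of the Wnt and BMP lists that are not members Fst, at 0 UMIs against 572, was lowest, followed by Porcn (-4.39) and Myc (-4.10). The highest were Bmpr2, near the control level (0.07), Apc (-0.38) and Id2 (-0.64).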

How the data were processed

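Single-cell 3' RNA-seq was made from 5 libraries with 10x Genomics chemistry, and the deposited matrices hold UMI counts per gene and barcode, which the authors made with Cell Ranger (version 5 and genome mm10 in the submitters' processing notes, while the matrix headers give 3.0.1 for the 7-day and tissue libraries and 7.0.0 for the 11-day library, and the methods name GRCm39). Whether intronic reads were counted is not given in the sources used here. The 7-day and tissue lists hold 31053 genes, the 11-day list 32285, and 30406 are in both, to which the 11-day ratios were limited.

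Barcodes with at least 200 genes and at most 5% mitochondrial UMIs were kept. Doublets were scored with Scrublet (scanpy 1.11.5) and the highest scores removed at 0.8% per 1000 barcodes, since its automatic threshold marked between 0% and 10.1% per library. UMIs were summed per library and scaled to CPM. Log2 ratios and the 1.5-fold calls used a pseudocount of 1 CPM, while folds given with an interval, and all intervals, were computed without it. Intervals were 95% Poisson, conditional binomial and Clopper-Pearson intervals (scipy 1.17.1), and the ratios were checked on simulated data. Leiden clusters (leidenalg 0.10.2, resolution 0.8, 2000 variable genes, 30 components) left out the members and the Wnt and BMP lists. Alternatives changed scaling, barcode filters, thinning, pseudocount, minimum counts and cluster resolution. Since every group is a single library, differences were given without tests.

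The members and lists were chosen with earlier results of these data known. Named were the 10 members, the 3 highest and 3 lowest ratios of the lists per comparison (at least 200 UMIs, 20 CPM), the 5 genes most like Sostdc1 (of which some are not reported here), and list genes where a count was small. All other numbers were computed with Python 3.11.15, numpy 2.4.6 and pandas 2.3.3, and figures with matplotlib 3.10.9.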

Additional observations from a re-analysis of the deposited data

How the results depend on the processing

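Of 552 recomputed ratios 419 stayed the same, 125 moved beyond their counting interval, 3 were weaker, 2 were stronger and 3 called ratios turned. Same means within the counting interval, whatever the call. For ratios relative to span and in barcodes with under 5 Sostdc1 UMIs it means an unchanged call, whatever the interval. The ratios that turned were those of Axin2 in the 11-day comparison and Ctnnb1 in tissue. Axin2 went to -0.063 with median-of-ratios scaling and -0.0498 relative to genes of like span (chosen after seeing the data), and Ctnnb1 to 0.55 in barcodes with at least 1% Malat1. Of 130 recomputed numbers of members past 1.5-fold 116 were unchanged or within 1.5 times. After photons the number lower went from 0 to 1 with at least 1% Malat1 (Sostdc1) and with barcodes thinned to 1000 UMIs (Lgr4, -0.69). With a pseudocount of 0.1 CPM the number higher went from 0 to 1 after photons and to 1 after protons (Wnt7a). After protons the number lower went from 1 to 0 at no more than 2500 genes per barcode and to 0 when thinned. In the 11-day comparison the number lower went from 1 to 2 at 2500 or more genes, to 2 when 1 UMI was enough, to 0 when thinned, to 4 with median-of-ratios scaling and to 3 relative to genes of like span, while the number higher went from 4 to 2 under both of these last scales. In tissue the number lower went from 8 to 5 when thinned. Axin2, Wnt7b and Fzd6 were then detected in 28, 34 and 33 control and 0, 0 and 2 tissue barcodes. A gene is counted only with at least 50 UMIs in sum. The log2 ratios of these genes in tissue were at most -2.13, -3.45 and -0.86 under all 11 alternatives, past 1.5-fold lower in each. The part of the UMI minimum in the smaller number, and the cause of the other changes, was not tested. The highest level over clusters moved beyond its interval in 20 of 57 recomputed values, so cluster levels hold for the resolution used.

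No paired analysis was possible because each group holds 1 library, and leaving out a library does not apply. Depth limits Wnt7a, with at most 52 UMIs in a library, Lef1 in every library, and Axin2, Wnt10a and Sostdc1 in tissue, with at most 8 UMIs each.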
